A study of Mus musculus with 6 samples.

Results

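The secreted Wnt antagonists Dkk2, Dkk3, Sfrp1, Sfrp2, Sfrp4 and Notum were followed at single-cell resolution in murine rhabdoid tumors of 2 locations. These 6 genes were named in advance, with earlier results of the same data known, and were read in the UMI table of each tumor, where a gene missing from a table counts as 0. Each table lists the genes found in at least 3 of its cells, so a gene that is not listed may still have had UMIs in fewer cells, and no upper limit is given for it. Of the 6 genes, 5 were listed in at least 1 table, among 16557 genes in all. Sfrp1 was listed in no table and is not analysed here. Their levels in tumor cells against other cells, and in the 2 subtypes, were part of how they were chosen, so those values are given as a description with no test.

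The tumors were 3 MYC spinal rhabdoid tumors (here spinal-1, spinal-2 and spinal-3, in mice aged 19, 26 and 17 weeks) and 3 MYC extracranial rhabdoid tumors (eRT-1, eRT-2 and eRT-3, in mice aged 17, 29 and 22 weeks, from the gland, the jaw and the shoulder). All animals were Smarcb1 fl/fl with a tamoxifen-inducible cre, so that the tumor cells of every group lacked Smarcb1, which belongs to the core of the chromatin remodeller SWI/SNF. Tamoxifen (50 mg/kg) was given once to the pregnant dam at day 6.5 post-coitum. The 3 spinal tumors and eRT-1 came from the Rosa26-cre strain, whose promoter is active in all cells, and eRT-2 and eRT-3 came from the Sox2-cre strain, whose promoter is active in early progenitors, so location, subtype and strain cannot be fully told apart. Tumors were dissociated and sorted for live cells, and no tumor-free tissue was used here.

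Wnt proteins signal by binding a Frizzled receptor together with the co-receptors Lrp5 and Lrp6, which stabilises beta-catenin in the receiving cell. Secreted antagonists act outside the cell at different points of this step. Dickkopf proteins such as Dkk2 bind Lrp5 and Lrp6, frizzled-related proteins (Sfrp1, Sfrp2, Sfrp4) bind the Wnt ligand itself, and Notum is an enzyme that removes the lipid from Wnt that its receptor needs. Dkk3 is a divergent family member whose part in Wnt signalling is less clear. Several of these genes are themselves switched on by beta-catenin, which makes them feedback inhibitors, and Dkk2 and the Sfrp genes are known products of mesenchymal cells.

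In the mm10 (GRCm38) genome, Dkk2 lies at chr3:132085292-132180304 on the plus strand and Sfrp2 on the same chromosome at chr3:83766321-83774316, also on the plus strand. Sfrp4 lies at chr13:19623104-19632994 (plus strand), Dkk3 at chr7:112116017-112159057 (minus strand) and Notum at chr11:120653788-120661175 (minus strand). The 250 bases before the transcription start are shown for the 2 members with a RefSeq promoter entry (GRCm38.p6), since one was detected in tumor cells of all 3 eRT and the other in tumor cells of only 1 eRT. Each is printed 5′ to 3′ on the gene's strand, and capitals mark a TATA box (TATAAA).
Dkk2, chr3:132085042-132085291: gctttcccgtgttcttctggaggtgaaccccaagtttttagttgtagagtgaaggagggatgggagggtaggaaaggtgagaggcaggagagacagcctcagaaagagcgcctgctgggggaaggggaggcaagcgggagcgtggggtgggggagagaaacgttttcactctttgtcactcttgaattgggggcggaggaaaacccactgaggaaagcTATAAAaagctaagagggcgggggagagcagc
Sfrp2, chr3:83766071-83766320: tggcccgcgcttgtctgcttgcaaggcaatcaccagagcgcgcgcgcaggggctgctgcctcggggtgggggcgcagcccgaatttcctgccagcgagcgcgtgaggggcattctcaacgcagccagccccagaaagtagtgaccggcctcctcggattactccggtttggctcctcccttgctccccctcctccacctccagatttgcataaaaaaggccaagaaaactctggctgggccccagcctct
The Dkk2 sequence held a TATAAA that begins 32 bases before the start, and the Sfrp2 sequence held none on either strand. TATAAA was found on either strand in 12.4% of 32851 RefSeq promoters of this length. The 7-base forms of the TCF and LEF core searched (ATCAAAG and TTCAAAG, both strands), which beta-catenin's partner factors bind, were in neither sequence and in 7.48% of all promoters. The Sfrp2 sequence had 63.6% G and C with 16 CpG, the Dkk2 sequence 55.6% with 7 CpG, and the median promoter 52.4% with 6 CpG.

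After filtering, 22163 cells remained, with 3841706 to 26184224 UMIs per tumor. Clusters whose Smarcb1 UMIs were fewer than 0.25 of the number that immune-like cells of the same tumors would give were taken as tumor cells. There were 98 of them in spinal-1, 16 in spinal-2, 1502 in spinal-3, 68 in eRT-1, 204 in eRT-2 and 627 in eRT-3. Smarcb1 itself stood at 0 to 6.41 CPM (counts per 1000000 UMIs) in tumor cells and at 25.6 to 59.9 CPM in immune-like cells of the same tumors. Tumor cells of spinal-2 gave only 45279 UMIs, where 3 UMIs already come to 66.3 CPM, so that little can be read from them. The tumor clusters of eRT held the fibroblast markers Col1a1, Col1a2, Dcn, Lum and Pdgfra, except for 1 epithelial-like cluster of 38 cells, 36 of them from eRT-1. A further fibroblast-like cluster of 80 cells, 74 of them from eRT-3, had 4 Smarcb1 UMIs, 0.331 of the expected number, and stayed among the other cells.

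The members differed widely in abundance and in the cells that carried them. Over all tumors there were 1095 UMIs of Dkk2, 643 of Sfrp4, 523 of Notum, 93 of Sfrp2 and 67 of Dkk3. Tumor cells held 94.8% of the Dkk2 UMIs, 94.2% of those of Sfrp4, 83.4% of Notum and 74.2% of Sfrp2, but only 13.4% of Dkk3. Of the Dkk3 UMIs, 56.7% fell in T cell-like cells and 20.9% in fibroblast-like cells outside the tumor clusters, but 29 of the 38 in T cell-like cells came from spinal-1. Without spinal-1, 32 Dkk3 UMIs were left, 28.1% of them in T cell-like cells, 43.8% in fibroblast-like cells outside the tumor clusters and 25% in tumor cells. No member was listed for spinal-2.

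**Figure D1:**
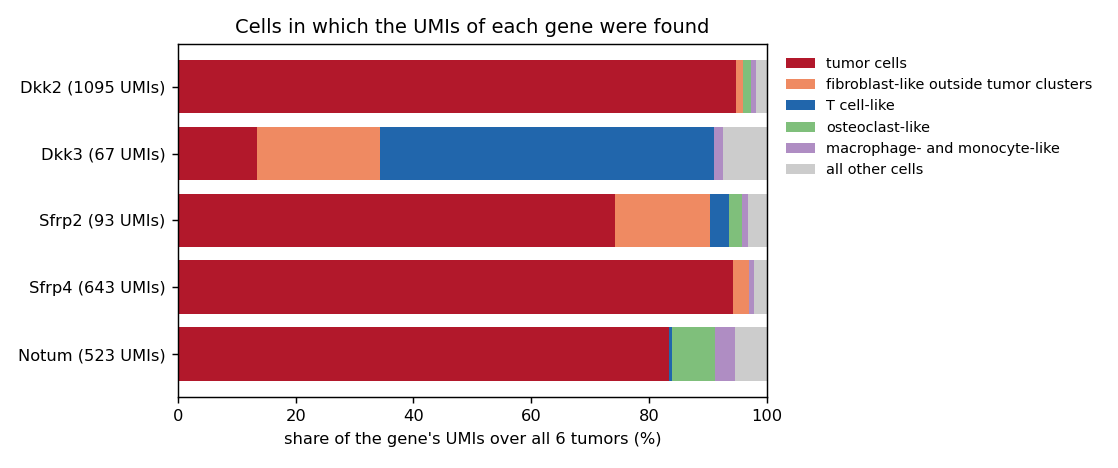
Share (%) of the UMIs of each gene, summed over all 6 tumors, that fell in each kind of cell (stacked colours), with the number of UMIs beside the gene. Tumor cells (dark red) hold most UMIs of Dkk2, Sfrp2, Sfrp4 and Notum, and T cell-like cells (blue) hold 56.7% of those of Dkk3, or 28.1% without spinal-1.

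Dkk2 was the most widespread of the antagonists. Tumor cells of eRT held 137 CPM in eRT-1 (95% Poisson interval 105 to 175), 420 CPM in eRT-2 (371 to 474) and 215 CPM in eRT-3 (199 to 232), a mean of 257 ± 146 CPM (SD, n = 3). In MYC spinal tumor cells Dkk2 stood at 38.2 CPM in spinal-1 (23.6 to 58.3) and 4.65 CPM in spinal-3 (3.29 to 6.38), and it was not listed for spinal-2. In CPM, all 3 eRT were thus above both spinal tumors in which Dkk2 was seen, with no overlap of their intervals. The other cells of these 5 tumors held between 0.245 and 2.77 CPM.

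Intervals for Dkk2 in tumor cells lay above those in other cells in 5 of 6 tumors. Of all 16556 genes with a UMI, 3.99% did so in at least 5 tumors, and by tumor the share of genes that did so was 23.4% in spinal-1, 6.48% in spinal-2, 35.5% in spinal-3, 19.4% in eRT-1, 12.6% in eRT-2 and 28.3% in eRT-3. Since the members were chosen on this contrast, nothing is read from these counts. The ratio of the levels was 151 in eRT-2, 93.1 in eRT-3 and 3.35 in spinal-3. The other cells of spinal-1 and eRT-1 held too few UMIs for a ratio, at 0.608 CPM (0.0736 to 2.2) and 0.245 CPM (0.0506 to 0.717).

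Dkk2 was found in 51.8% of the tumor cells of eRT-3 (interval 47.8 to 55.8), 43.6% of those of eRT-2 and 30.9% of those of eRT-1. In spinal tumors the shares were 12.2% in spinal-1 (6.49 to 20.4) and 1.6% in spinal-3. The interval of spinal-1 overlapped that of eRT-1 (20.2 to 43.3). Immune-like cells, taken here as the background, had it in 0.171% (eRT-3), 0.299% (eRT-2), 0.201% (eRT-1), 0.0771% (spinal-1) and 0.409% (spinal-3). Whether these UMIs are their own or free RNA was not tested. Immune-like cells were shallower in each of these 5 tumors, with medians of 1278 to 4676 UMIs per cell against 2055.5 to 6141.5 in tumor cells. With every cell thinned to 1000 UMIs, the shares in tumor cells were 30.6% in eRT-2 (24.0 to 37.8), 17.7% in eRT-3 (14.8 to 20.9), 10.3% in eRT-1 (4.24 to 20.1), 5.15% in spinal-1 (1.69 to 11.6) and 0.333% in spinal-3 (0.108 to 0.775). The thinned intervals of eRT-1 and spinal-1 overlap. Thinned immune-like cells had 0 in eRT-3, eRT-1 and spinal-1, 0.241% in eRT-2 and 0.109% in spinal-3. The interval of spinal-3 tumor cells overlapped that of its immune-like cells (0.0297 to 0.279), so on this measure Dkk2 in spinal-3 was not distinguishable from background. Thinning left out 21 tumor cells and 428 immune-like cells of eRT-2.

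**Figure D2:**
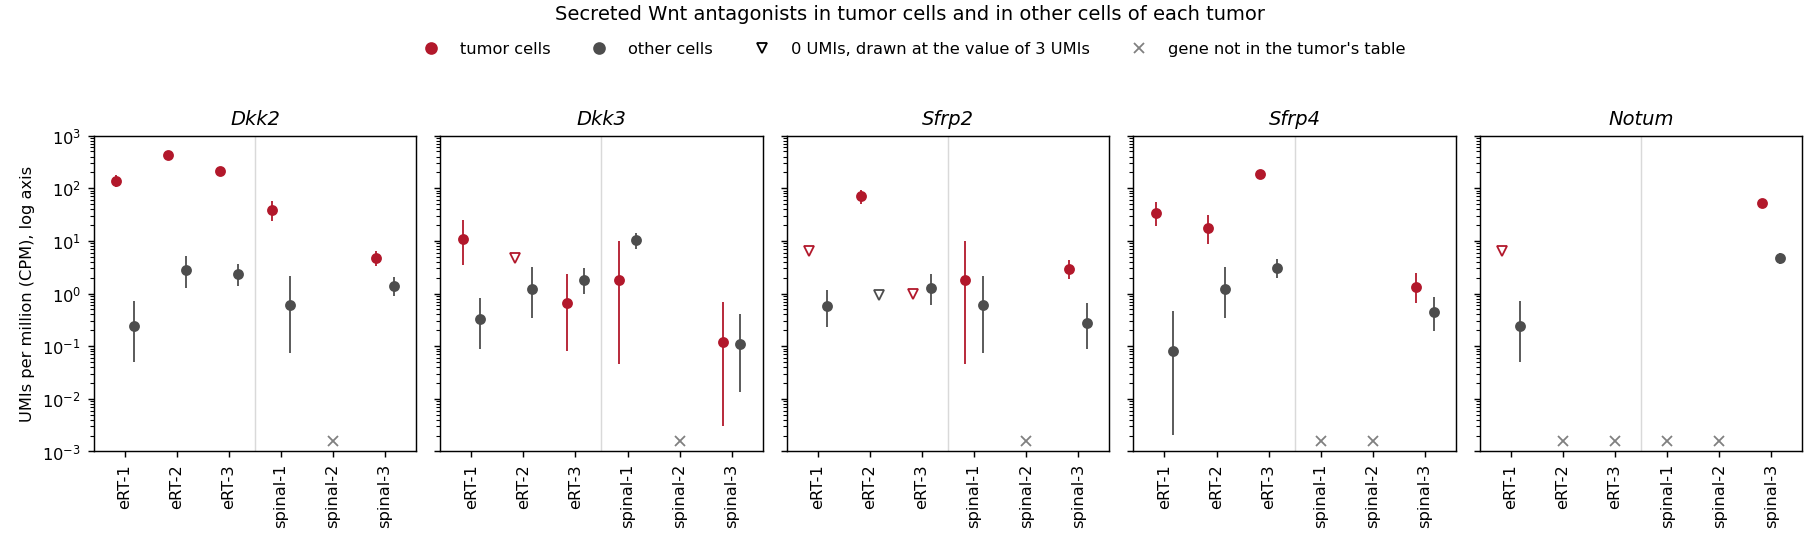
Level of each gene (CPM of summed UMIs, log axis) in tumor cells (red) and other cells (grey) of each tumor, with 95% Poisson intervals; open triangles mark 0 UMIs and are drawn at the value of 3 UMIs, and crosses mark genes not listed for a tumor. Dkk2 is seen in tumor cells of 5 tumors, Sfrp4 mainly in eRT with 188 CPM in eRT-3, Sfrp2 in eRT-2 and Notum in spinal-3.

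In CPM, Sfrp4 followed the same division between subtypes but differed more among the eRT. Its level in tumor cells was 188 CPM in eRT-3 (173 to 204), 34.2 CPM in eRT-1 (19.5 to 55.5) and 17.5 CPM in eRT-2 (8.74 to 31.3), a mean of 79.9 ± 94 CPM (SD, n = 3). In the spinal tumors it was 1.35 CPM in spinal-3 (0.672 to 2.41) and it was not listed for spinal-1 and spinal-2. The 3 eRT values in CPM lay above that of spinal-3, with no overlap of their intervals. Other cells held at most 3.08 CPM, in eRT-3. The order of the eRT was not that of Dkk2: eRT-3 was highest for Sfrp4 and eRT-2 was highest for Dkk2, and in both cases the intervals of these 2 tumors did not overlap.

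Sfrp4 was carried by fewer cells than Dkk2 in eRT-3, at 33.5% of tumor cells (29.8 to 37.3) and 12% after thinning (9.53 to 14.8). In eRT-2 the 11 UMIs came from 4 of 204 cells, and in eRT-1 the 16 UMIs from 6 of 68 cells. By share of cells, the interval of eRT-2 (0.537% to 4.94%) overlapped that of spinal-3 (0.108% to 0.775%). After thinning, 1 cell with Sfrp4 was left in eRT-2 (0.0138% to 3.01%) and 1 in eRT-1 (0.0372% to 7.92%). Both of these intervals overlapped that of thinned spinal-3 cells (0.00169% to 0.37%). Immune-like cells of eRT-3 had it in 0.137%, and in 0.104% when thinned. Among thinned tumor cells of eRT-3, Dkk2 was found in 28.0% of the 75 cells with Sfrp4 (18.2 to 39.6) and in 16.3% of the 552 cells without it (13.3 to 19.7). These intervals overlap.

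Sfrp2, a frizzled-related protein known from fibroblasts and cartilage, was mainly a gene of 1 tumor. Tumor cells of eRT-2 held 44 UMIs, 70.0 CPM (50.9 to 94), in 11.8% of cells and in 7.65% after thinning. Its immune-like cells had no UMI in 1673 cells. The other cells of eRT-2 together held none, with an upper limit of 1.14 CPM. Set against the value of 3 UMIs there (0.925 CPM), the level was 75.7-fold higher, which is not a lower bound. Tumor cells of spinal-3 held 2.94 CPM (1.88 to 4.37) against 0.278 CPM (0.0901 to 0.648) in its other cells. In tumor cells of eRT-3 and eRT-1 there was no UMI, which allows up to 1.22 and 7.88 CPM, and spinal-1 had 1 UMI. The 3 eRT therefore fell on both sides, with eRT-2 far above the limits of the others.

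Within eRT-2, Dkk2 and Sfrp2 differed between the 2 fibroblast-like tumor clusters. Dkk2 stood at 526 CPM (452 to 609) in the cluster led by C1qtnf3 and Fbln2 and at 281 CPM (222 to 351) in the one led by Ctla2a, Npy and Mfap4. Sfrp2 had the opposite order, with 47.0 CPM (26.9 to 76.3) and 101 CPM (67.1 to 146), although these intervals overlap. The median depth was 5624 UMIs per cell in the first and 1577 in the second.

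In eRT-3 and eRT-1 Sfrp2 was instead found in fibroblast-like cells outside the tumor clusters. The 74 such cells of eRT-3 held 10 Sfrp2 UMIs, 45.1 CPM (21.6 to 83), and 1 of the 2 such cells of eRT-1 held 5. The same 74 cells of eRT-3 carried 4 of the 5 listed members. Dkk2 there stood at 45.1 CPM (21.6 to 83) and Sfrp4 at 63.2 CPM (34.5 to 106), both below the tumor cells of eRT-3, and Dkk3 at 45.1 CPM (21.6 to 83) against 0.661 CPM in the tumor cells. In these cells 14 Sfrp4 UMIs came from 3 cells and the 10 Sfrp2 UMIs from 4. After thinning, 2.7% of them had Sfrp2 (0.329 to 9.42), against 0% of the tumor cells of eRT-3 (0 to 0.587), and these intervals overlap. Thus, in CPM within eRT-3, Sfrp2 and Dkk3 were higher in the fibroblast-like cells with more Smarcb1, and Dkk2 and Sfrp4 were higher in the tumor cells. Whether some of the 74 cells are tumor cells was not tested, and at a Smarcb1 limit of 0.5 their cluster counts as tumor.

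The T cell-like UMIs of Dkk3 came mostly from spinal-1. This tumor held 30 Dkk3 UMIs in immune-like cells, 10.3 CPM (6.93 to 14.7), against 1 UMI in tumor cells. Of these, 24 UMIs fell in a T cell-like cluster of 169 cells in that tumor, led by 5430421N21Rik, Actn2, Cxcr6 and Cd163l1, where 13% of cells had a UMI and 5.33% after thinning (2.46 to 9.87), at a median depth of 2391 UMIs. The level in that cluster was 54.5 CPM (34.9 to 81.0), compared with 10.3 CPM (3.35 to 24.1) in a T cell-like cluster of the same tumor led by Tnfrsf4 and Tnfrsf18, where 1.62% of cells had a UMI at a median depth of 1335 and none did after thinning. Over the spinal tumors another T cell-like cluster, led by Cd8b1 and Cd8a, held 1 UMI in 615 cells, or 0.163% of them. Dkk3 was thus concentrated in 1 of the 3 T cell-like clusters.

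Among the T cell-like cells of eRT, which were clustered on their own, Dkk3 UMIs also fell in 1 cluster, at lower counts. The T cell-like cluster led by Cxcr6, Il17a, 5430421N21Rik and Cd163l1 held 8 Dkk3 UMIs in 292 cells, 18.7 CPM (8.09 to 36.9). The other T cell-like cluster of eRT, with Cd8b1 and Cd28 among its leading genes, held 0 in 374 cells, which allows up to 7.44 CPM. The members and the Wnt lists were left out of the genes used for clustering, but as clusters are drawn from the same cells no test was made. Tumor cells held Dkk3 at 10.7 CPM in eRT-1 (5 UMIs in 3 cells, interval 3.47 to 24.9). They held no more than 1.82 CPM in spinal-1, spinal-3 and eRT-3, and 0 UMIs in eRT-2, which allows up to 5.87 CPM.

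Notum, the Wnt-inactivating enzyme and a known beta-catenin target, was almost wholly a gene of 1 tumor. spinal-3 held 436 UMIs in its tumor cells, 53.3 CPM (48.4 to 58.6), in 17.1% of cells (15.2 to 19.1) and in 3.99% after thinning (3.06 to 5.11). In eRT-1, the only other tumor whose table lists Notum, 3 UMIs were in osteoclast-like cells. None were in its tumor cells, which allows up to 7.88 CPM there. In eRT-2, eRT-3, spinal-1 and spinal-2 the gene was found in fewer than 3 cells of any kind and is not listed.

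The other cells of spinal-3 also held Notum, at 4.66 CPM, 11.4-fold below its tumor cells. Immune-like cells had it in 1.25% of cells (0.919 to 1.67) and 0.354% after thinning, at a median depth of 2894 against 4696 UMIs in tumor cells. RNA of the leading genes of the main tumor cluster was present in these cells too. Per 1000 UMIs of its 10 leading genes, there were 4.57 Notum UMIs in the main tumor cluster and 6.88 in all other cells together. Among clusters with at least 50 cells, the highest levels outside the tumor were 38.0 CPM in a monocyte-like cluster of 84 cells and 31.1 CPM in an osteoclast-like cluster of 87 cells, at 33.0 and 5.71 Notum UMIs per 1000 of the leading genes. The leading genes themselves stood at 1152 CPM in this monocyte-like and 5437 CPM in this osteoclast-like cluster, against 12460 CPM in the main tumor cluster. An unnamed cluster of 83 cells held Notum at 27.2 CPM and the leading genes at 9893 CPM. The part of free or mixed RNA, or of tumor cells, in these values was not tested.

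The tumor cells were clustered again within each subtype to see how the members vary among tumor cells of 1 animal. In eRT-3, Dkk2 ranged from 18.4 CPM (1 UMI, interval 0.466 to 102), in a subcluster led by Ctla2a and ribosomal genes, to 313 CPM (274 to 355) in one led by Bgn, Efemp1 and the collagen gene Col11a1. Sfrp4 had another order. Its highest level, 431 CPM (358 to 514), was in the 51 cells of a subcluster led by macrophage markers (C1qa, C1qb, Cd74), where Dkk2 stood at 98.1 CPM (65.2 to 142). Among subclusters without those markers, Sfrp4 was highest, 228 CPM (199 to 260), in one led by Chit1, Mmp9 and the chemokine Ccl2, and stood at 134 CPM in the Bgn subcluster.

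In spinal-3, Notum was highest, 80.8 CPM (69.0 to 94.1), in the subcluster led by the cytokine and chemokine genes Il23a, Ccl17, Csf3 and Ccl2. It was lowest, 11.1 CPM (4.47 to 22.9), in the one led by Bex1, Efemp1 and Stmn2. The hypoxia-gene subcluster (Hk2, Slc2a1, Bnip3) held 55.7 CPM (35.7 to 82.9), and the largest subcluster (Mup20, Dlk1) 27.3 CPM (19.3 to 37.7). Depth differed between these subclusters, with a median of 6599 UMIs per cell in the Il23a subcluster and 3004 in the Mup20 subcluster. After thinning, their shares of cells with Notum were 6.55% (3.99 to 10.0) and 1.71% (0.691 to 3.49). In spinal-1, 17 of the 21 Dkk2 UMIs of tumor cells fell in a subcluster led by Inmt, Cryab and Cxcl12, to which 62 of its 98 tumor cells belonged. In eRT-1, 42 of the 64 Dkk2 UMIs of tumor cells fell in a subcluster with Prg4, Fabp7, Cldn3, Cldn4 and Cldn7 among its leading genes. Dkk2 stood at 175 CPM (126 to 237) there, in 15 of 39 cells, and Sfrp4 had no UMI.

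**Figure D3:**
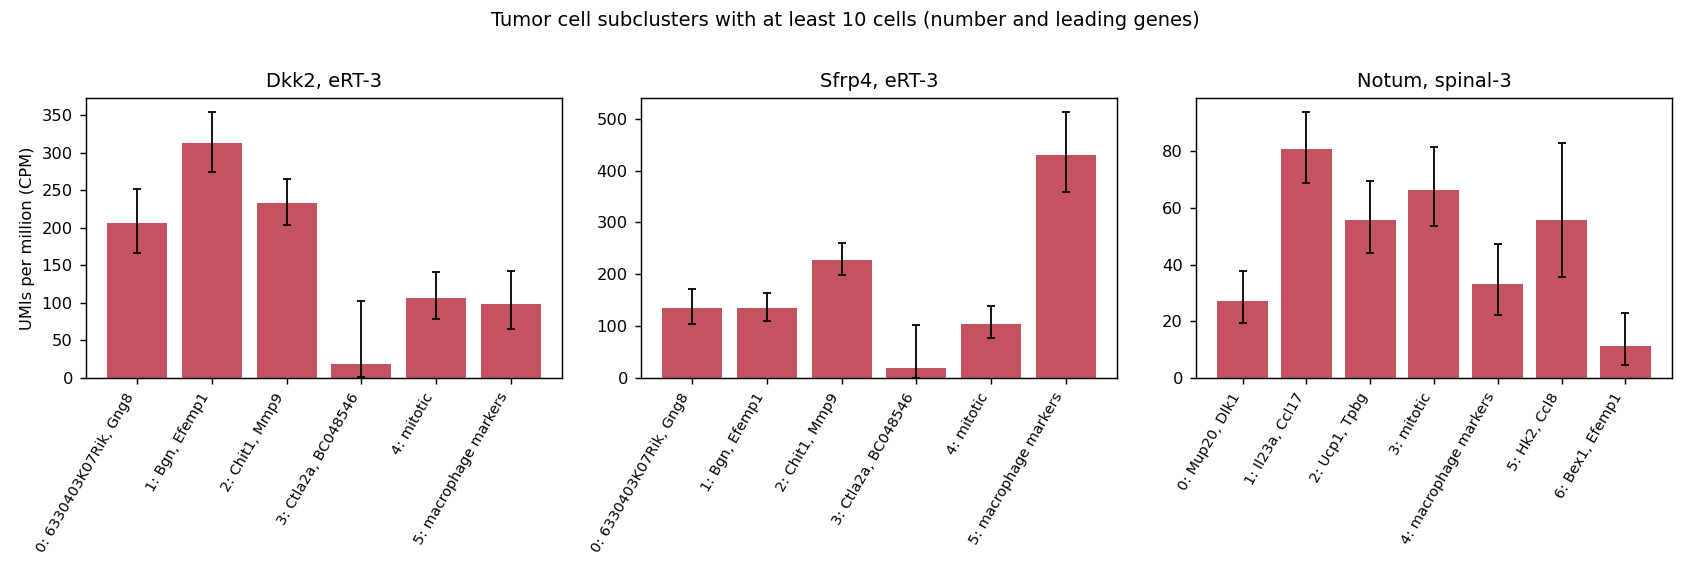
Level (CPM of summed UMIs, linear axis from 0) of Dkk2 and Sfrp4 in tumor subclusters of eRT-3 and of Notum in those of spinal-3, with 95% Poisson intervals; each subcluster is named by its number and leading genes or markers. Dkk2 is highest at 313 CPM in the Bgn subcluster, Sfrp4 at 431 CPM in the subcluster with macrophage markers, and Notum at 80.8 CPM in the Il23a subcluster.

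Mitotic tumor cells were compared with the other tumor cells of the same animal, a contrast that was not used to choose the genes, which were also left out of the clustering. Dkk2 was lower in mitotic cells of each tumor compared, though with overlapping intervals in spinal-3, and Sfrp4 was measurably lower in eRT-3 alone. Dkk2 stood at 107 CPM in mitotic and 234 CPM in other tumor cells of eRT-3, at 222 and 440 CPM in eRT-2, and at 0.707 CPM (1 UMI) and 5.47 CPM in spinal-3. In eRT-3 the intervals of Dkk2 were 78.6 to 141 and 216 to 254 CPM. Sfrp4 stood at 104 and 202 CPM in eRT-3, at 0 and 19.3 CPM in eRT-2, and at 0.707 CPM (1 UMI) and 1.48 CPM in spinal-3. These were the 3 tumors with at least 10 mitotic cells (172 in spinal-3, 19 in eRT-2 and 62 in eRT-3). For Sfrp4, 0 UMIs in the mitotic cells of eRT-2 allow up to 63.1 CPM, and the single UMI of spinal-3 has an interval of 0.0179 to 3.94 CPM. A difference was thus not detectable in these 2 tumors at this depth. The single Dkk2 UMI of spinal-3 has the same interval. It overlaps that of the other tumor cells there (3.85 to 7.54 CPM), so for Dkk2 a difference was not detectable in spinal-3.

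By edgeR's quasi-likelihood test, paired by tumor, Dkk2 fell by 1.36 on the log2 scale (SE 0.28, adjusted p = 0.000131) and Sfrp4 fell by 1.03 (SE 0.35, adjusted p = 0.0393). These were the 2 members that passed the filter on low counts, and 10.1% of the 6879 genes tested were called, 4.87% higher and 5.22% lower. Of 22 other Wnt pathway genes tested in this contrast, none was called by edgeR or DESeq2, 3 had an unadjusted p under 0.05 by edgeR and 1 by DESeq2, and their median was -0.13 beside -0.06 for all genes. Without eRT-2, 4 of 35 were called, beside 16% of all genes in that fit. Mitotic cells were deeper (median 6721 against 4225 UMIs in eRT-3), and thinned shares of cells with Dkk2 in eRT-3 were 12.9% (5.74 to 23.9) and 18.2% (15.1 to 21.7), with overlapping intervals. With S and G2M phase calls in place of subclusters, Dkk2 was not called (log2 change -0.37, adjusted p = 0.216). Without spinal-3, neither gene was called (adjusted p = 0.0868 for Dkk2 and 0.388 for Sfrp4). Without pairing by tumor, in the same 6 libraries, neither was called by edgeR (log2 change -1.55 and -0.96, adjusted p = 0.999 for both), nor were they when libraries of tumors with no partner were added (-0.78 and -0.31). Sfrp4 was also lost with DESeq2 (log2 change -1.20, adjusted p = 0.42), with every gene that had a UMI (-1.08, adjusted p = 0.083) and without the subclusters led by macrophage markers (-0.87, adjusted p = 0.125). Dkk2 was thus called in 6 of 10 alternatives and Sfrp4 in 2 of 8. In the rest of the 10, Sfrp4 did not pass the filter on low counts.

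Notum was measured in mitotic cells of spinal-3 only, at 66.5 CPM (53.7 to 81.4) against 50.6 CPM (45.4 to 56.2) in the other tumor cells, and Sfrp2 in those of eRT-2, at 85.5 CPM (27.8 to 200) against 68.4 CPM (48.6 to 93.5). Neither shows the direction of Dkk2 and Sfrp4, and both pairs of intervals overlap.

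**Figure D4:**
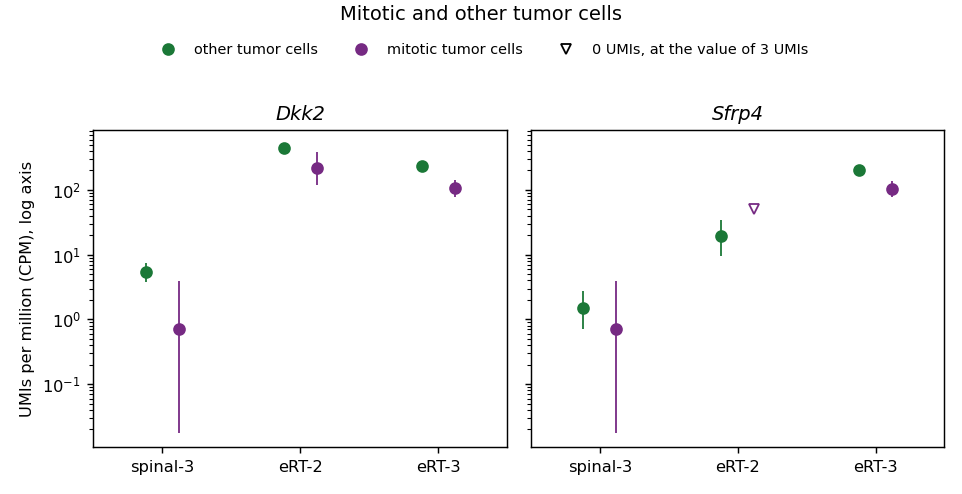
Level (CPM of summed UMIs, log axis) of Dkk2 and Sfrp4 in mitotic (purple) and other (green) tumor cells of the 3 tumors with at least 10 mitotic cells, with 95% Poisson intervals; the open triangle is 0 UMIs drawn at the value of 3 UMIs. In eRT-3 Dkk2 stands at 107 CPM in mitotic and 234 CPM in other tumor cells, and Sfrp4 at 104 and 202 CPM.

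To place the antagonists beside genes of like pattern, the levels were correlated over 49 sums of UMIs, each of 1 kind of cell in 1 tumor, across 7646 genes. The sums share 6 libraries, so the coefficients are descriptive. Each sum of tumor cells joins all tumor clusters of that tumor, so differences among its tumor cells are not seen. Dkk2 was most like Lum (Pearson's r = 0.83), Dcn (0.81) and Rgma (0.80), of which lumican and decorin are proteoglycans of connective tissue. Sfrp4 was most like the collagen-crosslinking enzyme Lox (0.87), S100a16 (0.86) and Rgma (0.83). Without the single highest sum, eRT tumor cells in each case, the values ran from 0.74 to 0.78 for Dkk2 and from 0.78 to 0.85 for Sfrp4. Notum was most like Ltbp1 (0.74), Nptx1 (0.73) and Fgfbp1 (0.70), and without the tumor cells of spinal-3 these fell to between 0.56 and 0.59.

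Other secreted antagonists were present in some of the same tumors. Dkk1, a Dickkopf protein known as a beta-catenin target, had 165 of its 182 UMIs in tumor cells, at 124 CPM in eRT-1 (94.1 to 160) and 13 CPM in spinal-3 (10.6 to 15.7). In eRT-1, 52 of the 58 UMIs came from 5 cells of the epithelial-like tumor cluster. Sfrp5 was likewise seen mainly in tumor cells of eRT-1, at 44.9 CPM (27.8 to 68.6). Wif1, a secreted protein that binds Wnt, had 58 of its 67 UMIs in the fibroblast-like cells of eRT-3 outside the tumor clusters, at 262 CPM (199 to 338), which are the cells that held Sfrp2 and Dkk3. Dkkl1 was found outside tumor cells, with 118 of 214 UMIs in T cell-like cells. None of these genes passed the filter of the test of tumor cells against other cells.

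The pathway on which the antagonists act was examined from lists of its other genes, 91 in all, of which 72 were listed in at least 1 table and 26 passed the filter on low counts in tumor cells against other cells. By edgeR's quasi-likelihood test, paired by tumor, 8 of the 26 were called, 7 higher and 1 lower in tumor cells, when 26.6% of all 9711 genes tested were called (12.1% higher and 14.4% lower). Their median log2 fold change was 0.57 beside -0.03 for all genes. The other cells were mostly immune-like, so this contrast sets tumor cells beside another kind of cell. Of 4 receptors and co-receptors tested 2 were higher, of 3 beta-catenin targets 1 was higher, and of 16 intracellular genes 4 were higher and 1 lower. No ligand, R-spondin receptor or other secreted antagonist passed the filter.

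The receptors were Ryk and Ptk7, both known as receptors of Wnt signalling that does not pass through beta-catenin. In tumor cells, the level of Ryk was 27.3 CPM in spinal-1, 23.0 CPM in spinal-3, 53.4 CPM in eRT-1, 17.5 CPM in eRT-2 and 31.1 CPM in eRT-3, and 3 UMIs in spinal-2 came to 66.3 CPM. Its other cells held 0.31 to 2.55 CPM, and the log2 fold change was 4.05 (SE 0.47, adjusted p = 0.000194). Ptk7 stood at 6.36 to 43.6 CPM in tumor cells of the 6 tumors, with 1 UMI in spinal-2, against 0 to 0.899 CPM in other cells (log2 fold change 4.84, SE 0.68, adjusted p = 0.000544). Lrp6, the co-receptor that Dickkopf proteins bind, was looked at for that reason after its values were seen. It was higher in tumor cells of 5 of 6 tumors, at 18.5 to 44.5 CPM there against 7.09 to 12.8 CPM, with 0 UMIs in tumor cells of spinal-2, and did not pass the test (log2 fold change 1.17, SE 0.44, adjusted p = 0.0795).

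Inside the cell, Ctnnb1 (beta-catenin) and 3 of its nuclear partners were higher in tumor cells. In spinal-2 this rests on 1 to 4 UMIs of each gene, and for Ctnnb1 the interval there (24.1 to 226 CPM) spans the 62.8 CPM of its other cells. Ctnnb1 reached 489 CPM in spinal-1 and 237 CPM in eRT-1, and stood at 58.9 to 111 CPM in the other 4 tumors, against 29.6 to 65.5 CPM in other cells (log2 fold change 1.32, SE 0.40, adjusted p = 0.0367). Without spinal-1 its change was 0.87 and no longer called, and the call was also lost without eRT-1 (1.16), eRT-2 (1.33) or eRT-3 (1.45). Tcf7l2, a factor through which beta-catenin acts, was called at 2.15 (SE 0.32, adjusted p = 0.000713), and its coactivators Bcl9 at 2.01 (SE 0.47, adjusted p = 0.011) and Bcl9l at 1.88 (SE 0.36, adjusted p = 0.00365). Over 20 alternatives Tcf7l2 was called in 20, Bcl9l in 19, Bcl9 in 17, Ctnnb1 in 14 and Tle4 in 11. The cyclin gene Ccnd1 stood at 164 to 746 CPM in tumor cells and 12.3 to 153 CPM in other cells (log2 fold change 2.46, SE 0.34, adjusted p = 0.000502). Tle4, a corepressor, was the gene called lower (-0.89, SE 0.27, adjusted p = 0.0338), at 5.14 to 22.1 (1 UMI in spinal-2) against 10.3 to 23.7 CPM, and was no longer called without TMM factors (-0.72), without spinal-3 (-0.80), without eRT-1 (-0.91), without eRT-2 (-0.91) or without eRT-3 (-0.82).

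**Figure D5:**
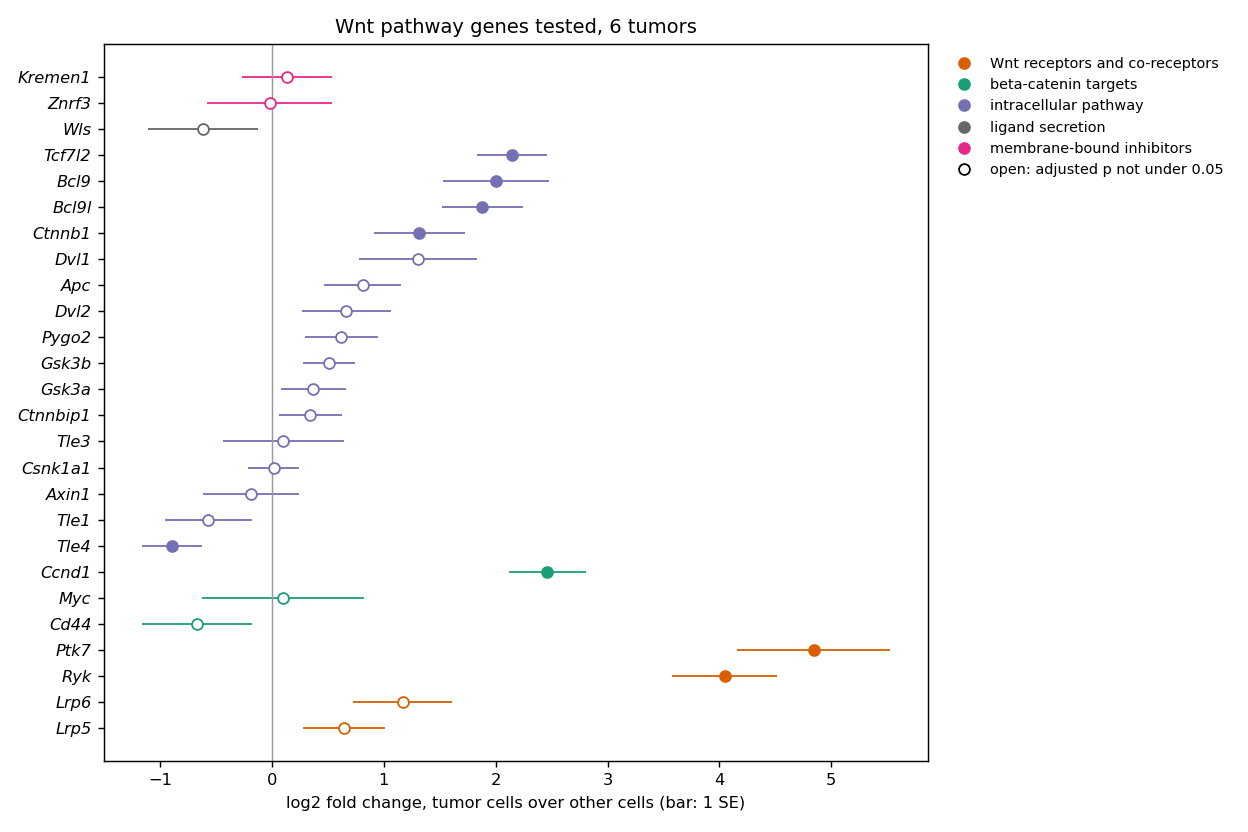
Log2 fold change, tumor cells over other cells in 6 tumors, of the 26 Wnt pathway genes tested, with bars of 1 SE; colours give the list and filled points an adjusted p under 0.05 (edgeR). Ryk (4.05) and Ptk7 (4.84) lie farthest to the right, and Tle4 (-0.89) is the filled point left of 0.

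With every gene that had a UMI in the test, 24 of 72 list genes were called, 22 higher and 2 lower, when 21.9% of all genes were. Those added included the receptor Fzd2 (log2 fold change 5.56), the ligands Wnt5a (5.44), Wnt10a (4.96), Wnt2 (4.36) and Wnt11 (3.77), the R-spondin receptor Lgr4 (4.24) and Dkk1 (5.19), while Dkkl1 was lower (-3.93). These genes are low: Wnt5a stood at 0 to 50.9 CPM in tumor cells and at no more than 0.389 CPM in other cells. Of the 8 beta-catenin targets in this fit, only Ccnd1 was called. Axin2 (1.42), Nkd2 (0.75), Myc (0.04), Cd44 (-0.73), Nkd1 (-1.55), Lef1 (-1.9) and Tcf7 (-2.04) were not.

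Whether the tumor cell difference of the list genes differed between eRT and MYC spinal was tested as an interaction. None of the 42 list genes tested was called by edgeR or DESeq2, with 2 at an unadjusted p under 0.05 by each, and 0% of all 11448 genes were called by edgeR (288 at an unadjusted p under 0.05) and 2 genes by DESeq2. Tumor cells of eRT were also compared with those of MYC spinal directly. None of 18 list genes was called by either tool, with 2 at an unadjusted p under 0.05 by edgeR and 1 by DESeq2, and 0% of 5728 genes were called by edgeR (191 at an unadjusted p under 0.05) and 19 genes by DESeq2. The R-spondin receptor Lgr4 had the smallest unadjusted p among them and was 2.96 higher in eRT on the log2 scale (SE 0.81, adjusted p = 1 by edgeR). Lgr4 stood at 64.1 CPM in eRT-1, 22.3 CPM in eRT-2 and 40.0 CPM in eRT-3. In the spinal tumors it stood at 9.08 CPM in spinal-1 and 3.06 CPM in spinal-3. In spinal-2, 2 UMIs came to 44.2 CPM (5.35 to 160). It was named after its values were seen.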

How the data were processed

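Single-cell RNA sequencing of 6 tumors (10x Genomics 3′ chemistry, each tumor 1 animal) was processed by the authors with Cell Ranger 2.0.2 on mm10, and they deposited raw UMI counts of genes found in at least 3 cells of a tumor. The tables name cells by number, so shared barcodes could not be counted. Cells with fewer than 200 genes or over 25% mitochondrial UMIs were dropped, and the rest were integrated by subtype with Seurat 5.3.0 (2000 variable genes without members, Wnt lists and Smarcb1, 30 dimensions, resolution 0.8) and named from at least 3 markers. Scrublet found 21 doublets (0.0948%), a share at which it cannot have worked, so doublets stayed in. Tumor clusters held fewer than 0.25 of the Smarcb1 UMIs that the immune-like level predicts, where this came to 10 or more. Tumor subclusters with at least 3 mitotic or macrophage markers among their 10 top genes were taken as such.

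UMIs were summed per tumor and kind of cell (at least 10 cells) and scaled to CPM. Intervals are exact Poisson or binomial at 95%, and the level that a count of 0 allows is their upper limit. In figures and fold changes a count of 0 is given the value of 3 counts. Intervals, limits and this value cover counting error only. Tests used edgeR 4.0.16 with TMM factors, filterByExpr and Benjamini-Hochberg adjustment over all genes tested at 0.05. The SE printed and drawn for edgeR is the absolute log2 fold change divided by the square root of the test's F statistic. It is not a fitted standard error and need not match the p-value. Tumor was a block in tests within animals. Likeness used log2 CPM after adding 10 CPM, for members with at least 100 UMIs. Named genes were the members, list genes called in tumor against other cells (of the intracellular and target lists the 6 with the largest changes), and the 3 genes most like each such member. DESeq2 1.42.0, other filters, resolutions and limits were alternatives, and leaving out the subclusters led by macrophage markers and the unpaired mitotic test in the paired libraries were added after seeing the data. Scripts were tested on simulated data. Members and lists were chosen with earlier results of these data known. R 4.3.3 and Python 3.11.15 were used.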

Additional observations from a re-analysis of the deposited data

How the results depend on the processing

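The tumor cell interval of a member lay above that of other cells in 12 pairs of gene and tumor. By tumor, 6.48% (spinal-2) to 35.5% (spinal-3) of all genes with a UMI did so. The members were chosen on this contrast, so nothing is read from the number of pairs. The number of pairs was 12 with the stricter cell filter, at resolutions 0.4 and 1.6, at a Smarcb1 limit of 0.15, without the highest Scrublet scores and without subclusters led by macrophage markers, 13 against immune-like cells alone and 15 at a Smarcb1 limit of 0.5. For mitotic cells, the 2 members called became 1 with DESeq2, with every gene that had a UMI, and without subclusters led by macrophage markers, 0 with phase calls, 0 with no replicate block (no pairing by tumor, 9 libraries in place of 6) and 0 with no block in the 6 paired libraries, and 0 to 2 when a tumor was left out. The 0 is without spinal-3. Of all genes, 694 were called in this contrast, 38 without the pairing in 9 libraries, 0 without it in the 6 paired libraries (422 at an unadjusted p under 0.05), 202 with DESeq2, 294 by phase calls and 96 to 1468 without 1 tumor. Of the Wnt list genes in tumor against other cells, 8 called became 24 with every gene, 5 at a Smarcb1 limit of 0.5, 4 in MYC spinal alone, 9 in eRT alone and 7 without the pairing by tumor. They were 6 to 13 when a tumor was left out, the 13 without spinal-2 with its 16 tumor cells. All genes called fell from 2580 to 1262 at the limit of 0.5 and to 1144 in MYC spinal alone. Without TMM factors the median of all genes moved from -0.03 to 0.15 and the split from 1179 higher and 1401 lower to 1519 and 1150, and the median moved from 0.04 to -0.18 in the interaction and from 0.05 to -0.30 between subtypes. Between subtypes, DESeq2 called 19 of all genes and edgeR 0, and in the interaction DESeq2 called 2 and edgeR 0 (3 without spinal-3). The 2 tests between subtypes called 0 list genes under each alternative run. No named gene changed direction. The causes of these changes were not tested. Depth limits the members most in spinal-2 and in eRT-1, whose tumor cells are few.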

Other observations

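Notumos, the gene on the strand opposite to Notum, was found in 17 tumor cells of spinal-3, 1 UMI in each, at 2.26 CPM (95% Poisson interval 1.32 to 3.62) in the main tumor cluster. Among thinned tumor cells of eRT-2, Dkk2 was found in 42.9% of the 14 cells with Sfrp2 (17.7 to 71.1) and in 29.6% of the 169 cells without it (22.8 to 37.1). In spinal-3, Notum was found in 16.9% of the tumor cells without Dkk2 (15 to 18.9) and in 7 of the 24 with it (12.6% to 51.1%), before thinning. After thinning, Notum was found in 4.01% of the 1497 cells without Dkk2 (3.07 to 5.13) and in 0 of the 5 with it (0% to 52.2%).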
